A study of Mus musculus with 9 samples.

Results

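Gene expression was compared between mesenchymal stromal cells sorted from the bone marrow of 18-month-old and of 3-month-old control mice. The comparison used the 3 aged and 3 young control libraries of a series of 9, and 11525 of the 30579 listed genes, those at 1 FPKM or more in 3 or more of these 6 libraries. FPKM counts sequenced fragments relative to transcript length and library size. Both groups are labelled as controls, aged 3 months (Young Control) and 18 months (Aged Control). The sources used here do not give strain, sex, control alleles or sort gates. All mice received an injected antibody to VE-cadherin, which marks vessel walls, shortly before death. Stromal cells were then sorted from the long bones and lysed, and cDNA was made from small amounts of RNA with the SMART-Seq v4 kit. The other 3 libraries, labelled as aged Thbs1 knockouts, entered only alternative fits. Nothing in the labels ties a library to a mouse of its own, and the p-values rest on how far these libraries spread, which may be technical.

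Marrow stromal cells are the fibroblast-like support cells that lie around sinusoids and bone surfaces. They can form bone, cartilage and fat cells, and they secrete Cxcl12 and Kit ligand, on which blood stem cells depend. Their fate is steered by growth factors of the BMP, Wnt, hedgehog and insulin-like growth factor (IGF) families, each held in check by secreted antagonists. Marrow fat and loss of bone are well-known features of ageing marrow.

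Values below are rescaled FPKM, that is FPKM divided by a factor per library that sets the median ratio between libraries to 1. They are listed for libraries 1, 2 and 3 of a group, numbers that carry no order. Differences are aged minus young on the scale log2(rescaled FPKM + 1), which understates changes of low genes. Adjusted p-values are from limma, with Benjamini-Hochberg adjustment over all 11525 genes and a threshold of 0.05. In RNA from a pool of sorted cells, fewer cells of a type and less RNA per cell cannot be told apart.

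The stromal markers Cxcl12, Lepr and Pdgfra were expressed in all 6 libraries. Cxcl12 stood at 4643, 4971 and 4993 in young libraries and at 3203, 4124 and 4538 in aged ones. Lepr, the leptin receptor, stood at 602, 576 and 418 against 365, 582 and 497, and Pdgfra at 41.0, 34.5 and 27.9 against 28.3, 31.3 and 33.4. The groups overlapped for Lepr and Pdgfra, and none of these 3 genes passed the test. Over 21 tested stromal identity genes 19 differences were negative and 1 passed, with a median of -0.275 beside -0.01 for all tested genes. Their summed level was 1290, 1250 and 1130 in young and 759, 1150 and 1060 in aged libraries. Of 21 tested niche factor genes, however, 8 fell and 1 rose, with a median of -0.57 (-0.12 with 4 lower when libraries are scaled on stromal genes, and 2 to 9 lower without 1 library). Among them the adhesion molecule Vcam1 fell by 1.02 (adjusted p = 0.0215), from 360, 361 and 338 to 149, 172 and 205. The endothelial genes Cdh5 and Kdr were at most 0.0896 in every library. Pecam1, which endothelium shares with blood cells, stood at 0.0447 to 0.0789 in young and at 10.4, 11.6 and 2.65 in aged libraries and rose by 2.92 (adjusted p = 0.0112). The summed level of 30 endothelial genes was 103 to 116 in young and 104 to 119 in aged libraries. Aged libraries also held RNA of other cells. Immunoglobulin genes made up 0.0242% to 0.871% of summed FPKM in young libraries and 54.8%, 17.4% and 70.8% in aged libraries 1, 2 and 3. Of 35 general leukocyte genes, 34 were tested and 30 rose, with the summed level of the list at 227 to 342 in young and 1620 to 4500 in aged libraries. Libraries correlated at 0.956 to 0.987 among young, 0.913 to 0.96 among aged and 0.769 to 0.847 between ages (Pearson, log2 scale, over genes that are not independent replicates). A library had 16750 to 18382 genes above 0. The table gives no read totals, and the depth behind single values was not estimated here.

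In aged stroma 641 genes were higher and 367 lower, which is 5.56% and 3.18% of those tested and 8.75% together. Aged and young libraries did not overlap for 4029 genes (35.0%), with 1937 above (16.8%) and 2092 below (18.2%). A gene could enter the comparison through 1 age alone and then had to differ. Thus 317 of the 641 higher genes were under 1 in every young library. Among the 6321 genes with a young mean of at least 5, 130 were higher and 271 lower, so that in genes the young stroma clearly expressed, falls outnumbered rises. That balance depends on how libraries are scaled. The median difference of all tested genes was -0.01 after rescaling and -0.28 in FPKM as deposited, where 546 genes were higher and 1609 lower. Scaling on 21 stromal identity genes instead, an alternative chosen after the data were seen, gave 1366 higher and 135 lower. The median of all tested genes was then 0.375. Most genes shift together with the scaling, so a list median should be read beside the all-gene median of the same scaling. Counts of passing list members below are likewise to be read beside the 5.56% higher and 3.18% lower among all tested genes. A total of 149 higher and 55 lower genes kept their call under each of 4 other scalings that tested them and in each of 6 fits that left out 1 library. Of the 149, 24 are immunoglobulin genes, which 1 of the 4 scalings left out and so did not test. The fewest calls came without aged library 1 (171 higher, 71 lower) and the most without aged library 3 (1050 higher, 439 lower).

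**Figure D1:**
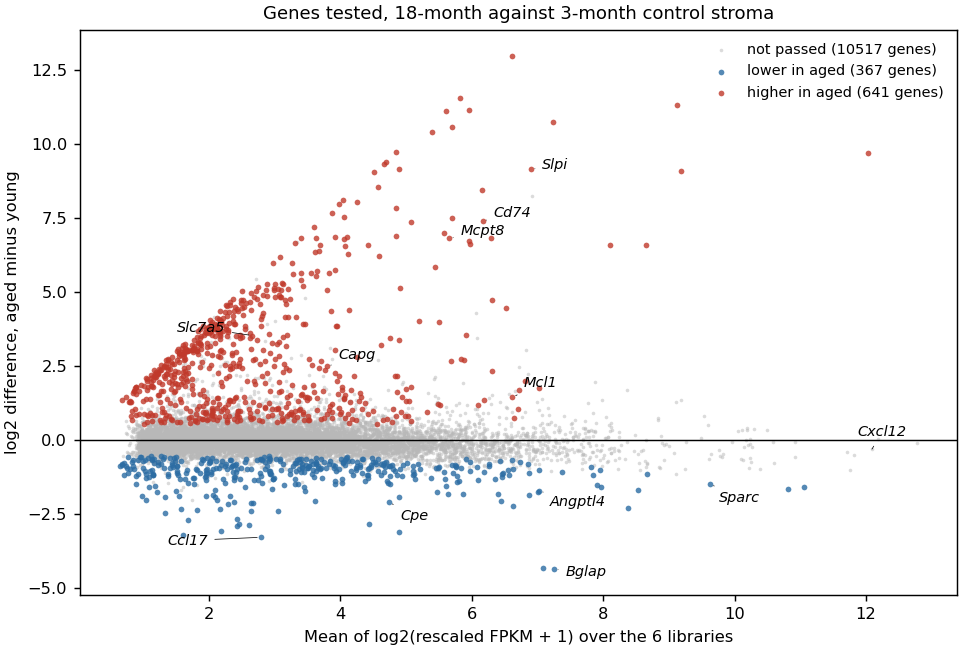
Each point is a gene, placed by its mean level over the 6 libraries (x axis, log2 of rescaled FPKM + 1) and its difference (y axis, aged minus young, log2 scale), coloured by the limma call. Rises reach larger sizes than falls, for instance 6.80 for Mcpt8 against -3.29 for Ccl17.

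Members of the bone morphogenetic protein (BMP), Wnt and IGF pathways fell in aged stroma. Of 43 BMP pathway genes 36 were tested and 5 fell, with a list median of -0.51. Scaling on stromal genes left 4 lower and a median of -0.15, and leaving out 1 library gave 3 to 10 lower, the most without aged library 3. Inhibitors and targets of the pathway were among the falls. Bambi, a decoy receptor that dampens BMP and TGF-beta signals, stood at 11.3, 12.6 and 14.8 in young and at 2.83, 3.49 and 3.92 in aged libraries. It fell by 1.66 (SE 0.16, adjusted p = 0.00224). Nog (noggin), a secreted antagonist that binds BMPs, went from 8.13, 7.60 and 10.3 to 1.06, 1.84 and 2.03, and fell by 1.88 (SE 0.20, adjusted p = 0.00283). Every aged library lay below every young one for both genes, and both kept their call under each scaling and without any 1 library. Id2, an inhibitor of helix-loop-helix factors that BMPs induce, showed 51.9, 43.0 and 83.3 in young against 17.9, 15.5 and 10.2 in aged libraries. It fell by 1.94 (SE 0.29, adjusted p = 0.0112). The related Id3 had young values of 387, 368 and 532 and aged values of 172, 209 and 267, which did not overlap but missed the threshold (adjusted p = 0.052). Id1 overlapped between the ages (adjusted p = 0.979), so the 3 Id genes did not give 1 common result. The ligand Bmp4 and the receptor gene Acvr1 also fell, by 1.41 and 0.85.

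Of 57 Wnt pathway genes 36 were tested, 8 fell and 1 rose. The list median was -0.50, and -0.11 with 5 lower after scaling on stromal genes. Without 1 library, 1 (young library 1 or 2, or aged library 1) to 10 (aged library 3) were lower. Secreted antagonists and receptors were both among the falls. Wif1, which binds Wnt ligands outside the cell, stood at 97.9, 103 and 125 in young libraries and 27.5, 24.4 and 39.9 in aged ones. It fell by 1.82 (SE 0.22, adjusted p = 0.00451) and was below every young library in all 3. Sfrp4, another soluble Wnt inhibitor, was much more abundant, at 477, 342 and 408 against 102, 176 and 156. Its fall of 1.51 (adjusted p = 0.017) passed in only 2 of 6 fits with 1 library left out. The receptors Fzd7 and Fzd9 fell by 1.14 and 1.33, and the ligands Wnt4 and Rspo3 by 1.58 and 1.07. The 1 rise was Lgr5, the R-spondin receptor known as an intestinal stem cell marker. Lgr5 stood at 0.573, 1.11 and 0.842 in young and at 3.58, 3.98 and 3.80 in aged libraries. It rose by 1.39 (SE 0.15, adjusted p = 0.00368) and kept its call under each scaling and without any 1 library.

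The IGF axis showed falls in ligand, adaptor, binding protein and protease. Of 16 tested genes on a list of 23, 4 fell, and the median was -0.52 (-0.14 after stromal scaling, with 2 lower). Leaving out young library 1, 2 or 3 or aged library 1 left 1 lower in each case. Igf1, the growth factor itself, stood at 36.7, 39.1 and 49.9 in young and 12.2, 15.9 and 17.9 in aged libraries. It fell by 1.4 (SE 0.19, adjusted p = 0.00809), with no overlap, and kept its call throughout the scalings and left-out libraries. Igfbp3, a carrier that limits IGF access to its receptor, was at 261, 237 and 158 against 19.7, 78.0 and 58.6. Its fall of 2.22 (SE 0.49, adjusted p = 0.0356) was among the 15 largest, but the aged libraries lay far apart and it passed in 2 of 6 fits with 1 library left out. Irs1, an adaptor below the insulin and IGF receptors, and Pappa, the protease that frees IGF from binding proteins, fell by 1.04 and 0.89. Socs2, a brake on growth hormone receptor signalling, fell by 2.08 (adjusted p = 0.0304). In the hedgehog and PTHrP list 2 of 11 tested genes fell, the parathyroid hormone receptor Pth1r by 0.97 and the hedgehog co-receptor Gas1 by 0.90. Neither of these passed after scaling on stromal genes (adjusted p = 0.166 and 0.13).

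**Figure D2:**
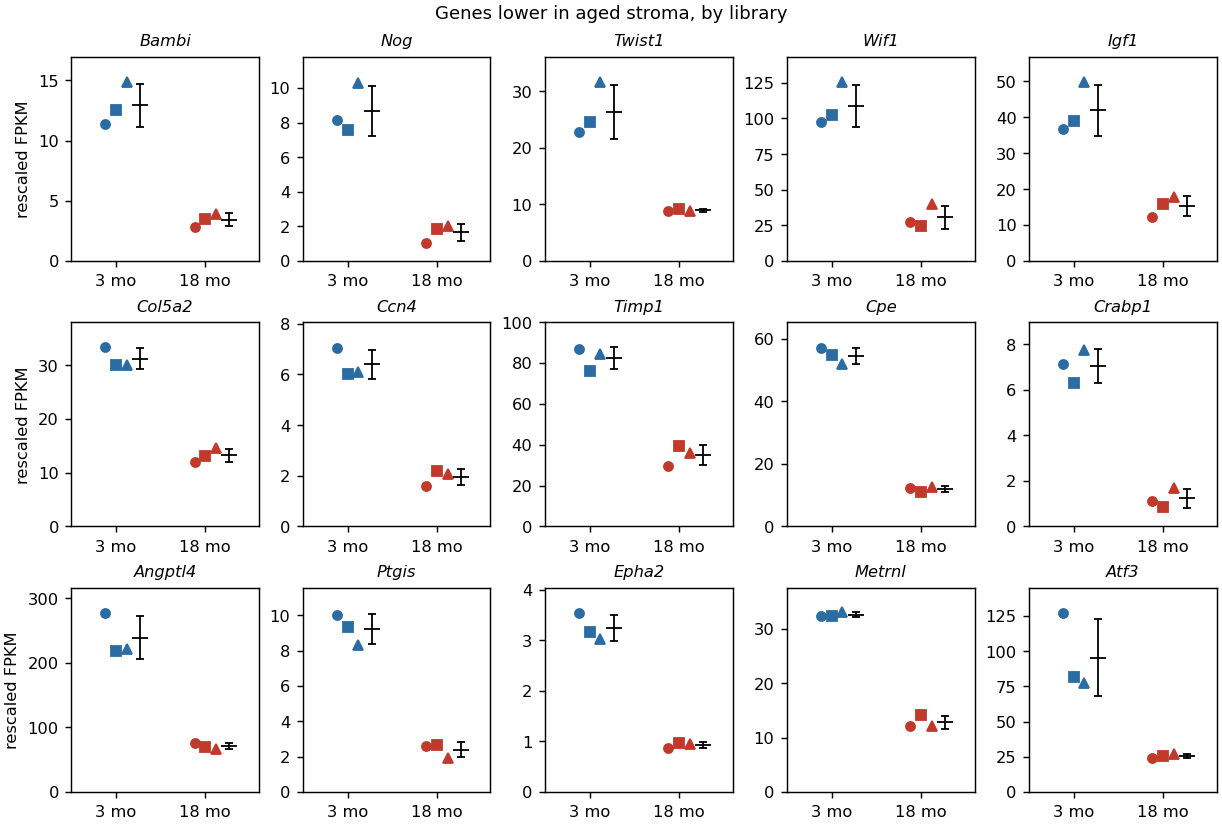
Rescaled FPKM of 15 lower genes in each library (blue, 3 months; red, 18 months; circle, square and triangle are libraries 1, 2 and 3), with the group mean ± SD as a black bar, n = 3. All 3 aged points lie below all 3 young points in every panel, as for Cpe with 52.0 to 57.1 against 10.9 to 12.6.

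Collagens of soft connective tissue had the lowest median of the functional lists. Of 27 such genes 18 were tested and 5 fell, with a median of -0.66 (-0.22 after stromal scaling, with 2 lower), and 2 to 5 were lower without 1 library. Col5a2, a fibril-nucleating collagen chain, stood at 33.5, 30.1 and 30.1 in young and at 12, 13.1 and 14.5 in aged libraries. It fell by 1.18 (SE 0.14, adjusted p = 0.00433) and kept its call in every scaling and left-out fit. Col12a1, which decorates collagen fibrils, fell by 0.98 from 6.60, 7.80 and 7.96 to 3.11, 3.47 and 3.22. The aged libraries were close to each other here, yet after stromal scaling the adjusted p of Col12a1 was 0.0691. Col5a1 and the membrane collagen Col13a1 fell by 0.82 and 1.26. The crosslinking list held 26 tested genes, of which 1 fell, beside 3.18% of all tested genes. That was Loxl2, a lysyl oxidase, by 0.64. The list median of -0.40 turned to 0.02 after stromal scaling, beside 0.375 for all tested genes.

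Proteoglycan and matricellular genes moved both ways. Of 54 listed 47 were tested, 8 fell and 2 rose. The median of -0.39 turned to 0.06 after stromal scaling, beside 0.375 for all tested genes. Without 1 library 2 (young library 1) to 8 were lower. Ccn4, a matricellular protein induced by Wnt signals, stood at 7.06, 6.02 and 6.10 against 1.59, 2.20 and 2.07, and fell by 1.33 (SE 0.15, adjusted p = 0.00368). Gpc3, a membrane heparan sulphate proteoglycan, went from 2.02, 2.35 and 2.27 to 0.524, 0.309 and 0.153, a fall of 1.28 (adjusted p = 0.00443). Both kept their call in all scalings and left-out fits. Sparc, an abundant collagen-binding protein also made by bone cells, stood at 1343, 1279 and 1371 against 411, 509.5 and 499, and fell by 1.5. Vtn (vitronectin), an adhesive glycoprotein of plasma and matrix, went the other way. Vtn stood at 7.26, 11.2 and 8.79 in young and at 24.0, 39.6 and 31.5 in aged libraries. It rose by 1.69 (SE 0.23, adjusted p = 0.00735) and held in every scaling and left-out fit. The other rise, Srgn, encodes the granule proteoglycan of blood cells and stood at 699, 879 and 130 in aged libraries 1, 2 and 3. Thbs1, the gene targeted elsewhere in the series, had 67.1, 64.1 and 52.0 in young and 39.6, 41.8 and 47.1 in aged libraries, and did not pass (difference -0.50, adjusted p = 0.109).

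Among matrix proteases and their inhibitors 40 of 52 were tested. Their median of -0.35 turned to 0.01 after stromal scaling, beside 0.375 for all tested genes. Of the 40, 7 fell, and 2 (without young library 1) to 7 were lower in left-out fits. The tissue inhibitors of metalloproteinases Timp1 and Timp4 were among them. Timp1 stood at 86.9, 76.2 and 84.2 in young and at 29.8, 39.6 and 35.7 in aged libraries, and fell by 1.22 (SE 0.16, adjusted p = 0.00713). Timp4 went from 7.15, 9.15 and 14.3 to 0.792, 1.69 and 2.39 and fell by 2.09 (SE 0.31, adjusted p = 0.0103). Its exons overlap those of Syn2 on the other strand. The gelatinase Mmp9 and the stromelysin Mmp3 fell by 1.51 and 1.21, so that genes of proteases and of their inhibitors fell together. Cpe, carboxypeptidase E, which trims peptide hormones and neuropeptides, had the smallest p among the 15 largest falls. It lies on mouse chromosome 8 at 64592542 to 64693054 (GRCm38, minus strand). Cpe stood at 57.1, 54.8 and 52.0 in young and at 12.4, 10.9 and 12.6 in aged libraries. It fell by 2.10 (SE 0.13, adjusted p = 0.000474), and the spread within each group was small beside that gap. Cpz, a carboxypeptidase with a Wnt-binding frizzled domain, went from 8.32, 4.81 and 4.52 to 0.401, 0.479 and 0.141, and fell by 2.33 (adjusted p = 0.00224). The serine protease homologue Prss35 fell by 1.92.

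Genes of positional identity were lower as a list, though few passed singly. Of 42 Hox genes and cofactors 30 were tested, 5 fell and 20 lay below every young library without overlap, beside 18.2% of all tested genes. The median was -0.56, and -0.21 with 1 lower after stromal scaling. Hoxa10, a posterior Hox gene of limb and pelvis, stood at 65.8, 66.1 and 76.0 in young and at 26.0, 34.7 and 35.1 in aged libraries. It fell by 1.1 (SE 0.17, adjusted p = 0.0124). Hoxc6 and Hoxd8 fell by 0.71 and 0.69 with narrow groups, Hoxc6 from 8.67, 8.46 and 8.73 to 5.12, 5.26 and 4.29. The limb homeobox gene Shox2 fell by 1.02, while Hoxa9 missed the threshold (difference -0.63, adjusted p = 0.0537). Without 1 library, 0 to 8 list members were lower, with 8 reached when aged library 3 was left out. In the list of stromal identity genes, with a median of -0.275, 1 of 21 tested fell, beside 3.18% of all tested genes. That was Twist1, a helix-loop-helix factor of embryonic mesenchyme. Twist1 stood at 22.7, 24.5 and 31.7 against 8.82, 9.13 and 8.75, and fell by 1.45 (SE 0.16, adjusted p = 0.00367). It kept its call even when libraries were scaled on that list (adjusted p = 0.018). Foxc1, which maintains the Cxcl12-rich stromal state, lay lower without overlap and did not pass (difference -0.72, adjusted p = 0.119).

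In the adipocyte list 23 of 29 genes were tested, 4 fell, 2 rose and 17 did not pass. The median of -0.49 came to -0.02 after stromal scaling, beside 0.375 for all tested genes. That scaling gave 3 lower and 4 higher, while FPKM as deposited gave 10 lower and 0 higher. Without 1 library, 0 (aged library 1) to 4 members were lower and 0 to 5 (without aged library 3) higher. Angptl4, a secreted inhibitor of lipoprotein lipase counted in the niche factor list, stood at 277, 219 and 221 in young and 76.3, 69.2 and 67.0 in aged libraries. It fell by 1.73 (SE 0.17, adjusted p = 0.00224) and held in all scalings and left-out fits. Lpl, the lipase that frees fatty acids from circulating lipoproteins, went from 325, 318 and 393 to 141, 146 and 170, a fall of 1.17 (adjusted p = 0.0124). Pparg, the master factor of fat cell formation, went from 39.6, 46.4 and 43.7 to 12.7, 21.2 and 22.5 and fell by 1.2 (adjusted p = 0.0231). Cfd (adipsin) fell by 2.66, with young values of 9.31, 26.7 and 7.64 and aged values of 0.747, 1.88 and 0.934. Adipoq (adiponectin), a hormone of fat cells, was lower without overlap at 1582, 1744 and 2468 in young and 809, 990.3 and 1058 in aged libraries, and did not pass (adjusted p = 0.0687). The lactate receptor Hcar1 and the catecholamine receptor Adrb3, both known from fat cells, fell by 1.12 and 1.23.

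Some genes of lipid metabolism rose. In the fatty acid list 3 of 25 tested genes rose and in the cholesterol synthesis list 1 of 20, beside 5.56% of all tested genes. Their medians of 0.04 and 0.18 turned to -0.25 and -0.08 in FPKM as deposited. The median of all tested genes was -0.283 there. The 3 fatty acid calls were lost in each of the left-out fits other than that without aged library 3, which gave 4. Acly, which makes cytosolic acetyl-CoA, stood at 13.3, 11.1 and 8.39 in young and at 20.3, 21.1 and 20 in aged libraries, and rose by 0.87 (SE 0.18, adjusted p = 0.0306). The cholesterol regulator Srebf2 rose by 0.93, from 12, 11.8 and 8.55 to 21.2, 20.8 and 21.6. The desaturase Fads1 and the elongase Elovl5 rose by 0.79 and 0.56, and the triglyceride lipase Pnpla2 by 0.67. These 5 genes had aged values that lay close together, unlike most rises. None of the 5 passed in FPKM as deposited, where the values of adjusted p ran from 0.0594 for Srebf2 to 0.354 for Elovl5, with Acly at 0.101, Fads1 at 0.115 and Pnpla2 at 0.204. Pkm, pyruvate kinase of glycolysis, rose by 1.32 from 21.2, 25.2 and 14.7 to 54.3, 60.4 and 41.0. Other glycolysis genes that rose, Pfkp and Gpi1, were lowest in aged library 3.

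Several secreted factors and receptors fell that belong to no single pathway. Ccl17, a chemokine that draws T cells, had the largest of the 15 falls chosen by size. It stood at 19.2, 11.7 and 38.6 in young and at 0.747, 1.55 and 1.43 in aged libraries. The difference was -3.29 (SE 0.39, adjusted p = 0.00451) and was called in all scalings and left-out fits. The monocyte chemokines Ccl2 and Ccl7 fell by 1.75 and 1.82, Ccl2 from 178, 223 and 333 to 51.8, 96.0 and 67.2. Cbln2, a secreted synapse organiser, went from 9.36, 6.05 and 6.02 to 0.390, 0.529 and 0.768 and fell by 2.36 (SE 0.20, adjusted p = 0.00117). Metrnl, a secreted factor of muscle and fat, went from 32.3, 32.3 and 33.1 to 12.2, 14.2 and 12.2. It fell by 1.28 (SE 0.13, adjusted p = 0.00271), with a young SD of 0.457. Both kept their call throughout.

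Receptor and second-messenger genes moved in both directions. In the list of G protein-coupled receptor and cyclic nucleotide genes 53 of 70 were tested, 8 fell and 6 rose. The median of -0.20 turned to 0.21 after stromal scaling, beside 0.375 for all tested genes. Without 1 library, 1 to 7 were lower and 0 to 8 higher. Ptgis, which makes prostacyclin, stood at 10.0, 9.34 and 8.30 in young and at 2.60, 2.65 and 1.89 in aged libraries, and fell by 1.6 (SE 0.15, adjusted p = 0.00201). The prostacyclin receptor Ptgir rose by 1.42, from 1.47, 1.89 and 1.62 to 7.10, 7.86 and 4.02. The G protein regulators Rgs3 and Rgs16 fell by 0.91 and 1.77. Among axon guidance genes 32 of 59 were tested, 3 fell and 1 rose, beside 3.18% and 5.56% of all tested genes. The list median of -0.26 turned to 0.11 after stromal scaling, again beside 0.375 for all tested genes. Epha2, a receptor for membrane-bound ephrins, went from 3.54, 3.17 and 3.04 to 0.870, 0.978 and 0.947 and fell by 1.14 (SE 0.13, adjusted p = 0.00373). Its ligand genes Efna5 and Efna4 fell by 1.14 and 1.03. Receptor and ligands therefore fell together, Epha2 in every left-out fit, Efna5 in 5 and Efna4 in 2.

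Among nuclear receptor and steroid response genes 34 of 51 were tested and 6 fell. The median of -0.22 turned to 0.19 after stromal scaling, beside 0.375 for all tested genes. Crabp1, which carries retinoic acid in the cytoplasm, stood at 7.12, 6.27 and 7.76 in young and at 1.13, 0.859 and 1.69 in aged libraries. It fell by 1.87 (SE 0.18, adjusted p = 0.00184). Vdr, the vitamin D receptor, fell by 1.32 and the glucocorticoid-induced kinase Sgk1 by 0.95. Of 13 tested imprinted growth genes on a list of 30, 3 fell, namely Ndn, Nnat and Mest, by 1.05, 0.88 and 0.58. Of 44 antioxidant genes 3 fell, beside 3.18% of all tested genes, namely Gpx7, Gstm5 and Nqo1, by 0.97, 0.92 and 0.71. None of the 6 genes in these 2 lists passed after stromal scaling, where adjusted p ran from 0.0885 for Ndn to 0.352 for Nqo1.

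Stress response genes gave opposite calls within 1 list. Of 43 immediate early and stress genes 42 were tested, 6 rose and 6 fell. The median of 0.16 turned to -0.18 in FPKM as deposited. After stromal scaling 8 were higher and 1, Atf3, lower, and without 1 library 1 to 10 were higher and 1 to 7 lower. Atf3, a stress-induced repressor, stood at 127, 81.6 and 77.2 in young and at 24.3, 25.8 and 27.1 in aged libraries. It fell by 1.81 (SE 0.21, adjusted p = 0.00433) and kept its call under each scaling and in each left-out fit. Egr2 and Gadd45g fell by 1.18 and 1.14, Gadd45g from 639, 572 and 598 to 231, 306 and 287. After stromal scaling neither passed (adjusted p = 0.0586 and 0.0518). Fos, an early response transcription factor, had 4054, 3642 and 3984 in young and 2517, 3102 and 3100 in aged libraries and did not pass (difference -0.43, adjusted p = 0.365). Of the p53 and cell cycle inhibitor list 34 of 41 genes were tested, 8 rose and 2 fell. The median of 0.24 turned to -0.01 in FPKM as deposited, and 1 (without aged library 1) to 11 (without aged library 3) rose in left-out fits. Cdkn1a (p21), the best-known p53 target and a marker of cell cycle arrest, was lower, at 143, 102 and 144 in young and 38.8, 64.0 and 53.2 in aged libraries. It fell by 1.31 (SE 0.24, adjusted p = 0.0201), in 3 of 6 left-out fits. Mcl1, which protects cells from apoptosis, rose by 1.43 (SE 0.18, adjusted p = 0.0053) from 71.7, 56.0 and 50.9 to 165, 164 and 154. Its aged values spanned a narrow range. Pmaip1 (Noxa), its antagonist, rose by 2.96 from at most 1.11 in young libraries to 17.5, 24.0 and 6.15.

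Amino acid genes that the factor Atf4 controls are usually induced together when amino acids run short or the endoplasmic reticulum is stressed. Of 33 genes of amino acid synthesis and transport 25 were tested, 3 rose and 1 fell. Slc7a5, the large neutral amino acid transporter, stood at 0.993, 0.745 and 0.887 in young and at 25.6, 14.9 and 22.4 in aged libraries. It rose by 3.52 (SE 0.21, adjusted p = 0.000403) and held under every scaling and without any 1 library. Its partner chain Slc3a2 rose by 2.32, from 37.2, 32.6 and 33.6 to 192, 73.0 and 384, with aged library 2 lowest. Chac1, which degrades glutathione, rose by 2.41 (SE 0.47, adjusted p = 0.0263) from at most 0.184 to 10.1, 1.68 and 6.68. Chac1 entered the comparison through aged libraries alone and then had to rise. Asns, asparagine synthetase, had 27.2 and 23.8 in aged libraries 1 and 3 and 3.64 in aged library 2, inside the young range of 2.44 to 3.95, and did not pass (adjusted p = 0.121). Among the aged libraries, Slc7a5, Chac1, Slc3a2 and Asns were each lowest in library 2, which also had the lowest immunoglobulin share. Summed plasma cell genes were lowest there too, at 5300, 1340 and 7920 against 376 to 454 in young libraries, and 14 of 22 tested members of that list rose. Their part in these rises was not tested. Glul, glutamine synthetase, fell by 1.14. Atf4 itself (adjusted p = 0.535) and Ddit3 (adjusted p = 0.869) overlapped between the ages.

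The promoters of Chac1, Asns and Atf3 are shown because each holds the core of the Atf4 response element near its start, while Chac1 rose, Atf3 fell and Asns did not pass. Each is the 300-base window around the start in RefSeq (GRCm38.p6), written 5′ to 3′ on the strand of the gene. Capitals mark matches to TGATGNAA on either strand.
Chac1, chr2:119350992-119351291, plus strand: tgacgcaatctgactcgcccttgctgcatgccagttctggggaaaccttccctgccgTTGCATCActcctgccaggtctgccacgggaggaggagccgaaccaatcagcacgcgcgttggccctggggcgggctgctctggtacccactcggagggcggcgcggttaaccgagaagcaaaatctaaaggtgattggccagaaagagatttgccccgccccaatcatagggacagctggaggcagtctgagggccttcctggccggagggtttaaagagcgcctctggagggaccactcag
Asns, chr6:7693160-7693459, minus strand: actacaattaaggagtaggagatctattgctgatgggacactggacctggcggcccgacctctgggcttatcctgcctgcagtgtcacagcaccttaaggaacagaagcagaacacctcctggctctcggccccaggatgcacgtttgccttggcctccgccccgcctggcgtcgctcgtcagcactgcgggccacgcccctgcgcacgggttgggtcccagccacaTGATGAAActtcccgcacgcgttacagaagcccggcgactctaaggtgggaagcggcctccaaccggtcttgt
Atf3, chr1:191183284-191183583, minus strand: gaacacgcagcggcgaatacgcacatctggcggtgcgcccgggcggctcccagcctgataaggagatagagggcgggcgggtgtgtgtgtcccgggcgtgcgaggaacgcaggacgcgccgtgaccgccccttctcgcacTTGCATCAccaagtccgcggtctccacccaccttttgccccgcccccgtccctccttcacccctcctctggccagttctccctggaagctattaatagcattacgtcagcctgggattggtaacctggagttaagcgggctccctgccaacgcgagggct
This core was found in 1304 of 32851 RefSeq promoters of the same length (3.97%). Among the 22 tested amino acid genes with a promoter in that table, 5 held it, Asns, Chac1, Got1, Pycr1 and Slc1a4. Chac1 rose. Got1 (adjusted p = 0.628) and Slc1a4 (adjusted p = 0.884) had overlapping groups, and Pycr1 lay higher without overlap but did not pass (difference 1.47, adjusted p = 0.0762). A match describes the letters of the window and not a bound site.

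Some rises were even among the 3 aged libraries. Of the 130 rises with a young mean of at least 5, 59 had aged libraries within 1.5-fold of each other, and of all 641 rises 141 did. Outside cell type lists, immunoglobulin genes and provisional symbols, Capg had the largest even rise at a young mean of at least 5. Its product caps actin filaments in motile cells. Capg stood at 3.63, 6.20 and 5.23 in young and at 36.1, 32.7 and 27.6 in aged libraries and rose by 2.48 (SE 0.20, adjusted p = 0.00109). Arrdc3, an arrestin that lowers beta-adrenergic signalling, went from 6.89, 5.71 and 5.28 to 27, 38.1 and 31.8 and rose by 2.25 (SE 0.17, adjusted p = 0.000912). Adk, adenosine kinase, went from 3.30, 3.81 and 5.25 to 21.5, 14.9 and 15.6, a rise of 1.84 (adjusted p = 0.00373). Ide, the protease that degrades insulin, rose by 1.77, the secretory GTPase gene Rab3d by 1.5 and Cdc42se2, which binds Cdc42, by 1.78. All 6 genes kept their call under each scaling and without any 1 library. Smaller even rises were seen for the lysosomal sulphatase Galns (1.11), the proton pump subunit Atp6v0a1 (0.95), the NADPH oxidase subunit Cyba (1.04), the guanylate-binding protein Gbp2 (0.59) and the class I gene H2-T23 (0.75). Of these 5, Galns passed in 3 left-out fits, Atp6v0a1 and Cyba in 2, and Gbp2 and H2-T23 in 0 of 6. Genes of the cell type lists could be even too, such as Itgal (47.1, 34.6 and 32.9) and Cytip (31.7, 26.5 and 25.2). These rose by 4.90 and 4.71, having entered the comparison through aged libraries alone. Capg and Cyba are also expressed by blood cells, whose general markers rose in the same libraries, and the part of those cells in the rises was not tested.

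**Figure D3:**
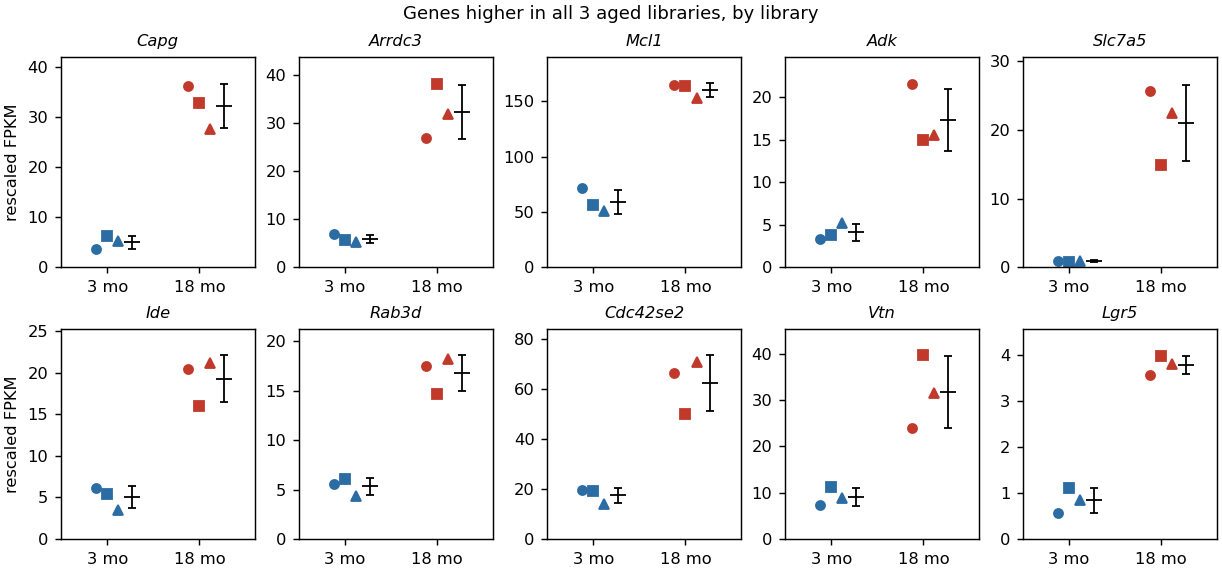
Rescaled FPKM of 10 higher genes in each library (blue, 3 months; red, 18 months; circle, square and triangle are libraries 1, 2 and 3), with the group mean ± SD as a black bar, n = 3. Every aged point lies above every young point, as for Mcl1 with 154 to 165 against 50.9 to 71.7.

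Most rises differed between the aged libraries and most were lowest in library 2 or library 3. Of 641 rises, 221 were lowest in aged library 2 and 389 in aged library 3, and only 31 in aged library 1. Plasma cell genes were lowest in aged library 2. Summed B lineage genes (1270, 207 and 1500) and macrophage and monocyte genes (1160, 432 and 1780) were lowest there too. Mzb1, a plasma cell chaperone, stood at 31.3, 5.63 and 57.3 in aged libraries against at most 0.0526 in young ones. Cd74, the invariant chain of class II antigen presentation, stood at 1663, 215 and 2229 against 2.94, 2.98 and 9.96. Edem1 and Herpud1, which clear misfolded proteins from the endoplasmic reticulum, stood at 123, 30.8 and 223 and at 293, 99.2 and 376, above young ranges of 6.96 to 9.13 and 49.6 to 58.9. Of 37 tested endoplasmic reticulum stress and folding genes 4 rose, beside 5.56% of all tested genes. Left-out fits gave 14 without aged library 2, 5 without aged library 3 and 0 without aged library 1 or any 1 young library. The sulphotransferase Chst1, the potassium channel Kcnn4 and the ectonucleotidase Entpd1 were lowest in aged library 2 as well.

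Summed levels of several blood cell lists were lowest in aged library 3. General leukocyte genes summed to 4260, 4500 and 1620 in aged libraries, and 23 T and NK cell genes to 248, 302 and 29.9. Of these 23, 5 were tested, which such genes could be through aged libraries alone, and 4 rose. The defining T cell markers Cd3e and Cd3d were at most 0.0446 and 0.758 in every library. A list of 16 genes of basophils and mast cells, which carry the high-affinity IgE receptor, written after the values were seen, summed to 9.47, 11.3 and 29.7 in young and to 4190, 4250 and 319 in aged libraries. The mast cell proteases Mcpt4, Tpsb2, Tpsab1 and Cma1 on it were at most 0.31, 0.14, 0.07 and 1.4 in aged libraries (FPKM as deposited). They were not tested. Only 10 of the 16 passed the filter on low values, which these genes could do through aged libraries alone, and those 10 rose. In left-out fits the count was 3, 3 and 2 without young libraries 1, 2 and 3, and 1, 9 and 10 without aged libraries 1, 2 and 3. Mcpt8, a basophil protease, stood at 2.25, 2.37 and 9.07 in young and at 1138, 1373 and 96.8 in aged libraries and rose by 6.80 (SE 1, adjusted p = 0.0106). Fcer1a, the IgE receptor chain, went from 0.868, 1.09 and 1.69 to 493, 485 and 36.8 and rose by 6.57 (SE 0.93, adjusted p = 0.0089). Mcpt8 did not pass without aged library 1 (adjusted p = 0.0585), nor Fcer1a without young library 3 (adjusted p = 0.0529). Inflammatory genes were among those lowest in aged library 3. Ccl3 stood at 12.5, 25.9 and 59.8 in young and at 5291, 7165 and 521 in aged libraries. Osm (oncostatin M), a cytokine of the IL-6 family, stood at 2.45, 3.19 and 4.23 against 1004, 1494 and 102 and rose by 6.99 (SE 0.91, adjusted p = 0.00669). Il6 rose by 3.54, from 21, 9.94 and 22 to 324, 533 and 48.8, and Ptgs2 (cyclooxygenase-2), Tnf, Tnfaip3 and Hgf were likewise lowest in aged library 3. Il6, Tnf and Hgf passed in 1 of 6 left-out fits and Ptgs2 and Tnfaip3 in 2. Of 22 tested chemokine genes 7 rose and 3 fell, and of 32 tested cytokine genes 6 rose. In left-out fits 1 to 7 chemokine and 3 to 8 cytokine genes rose, with the fewest chemokine calls without aged library 1. The part of blood cells in these counts was not tested.

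**Figure D4:**
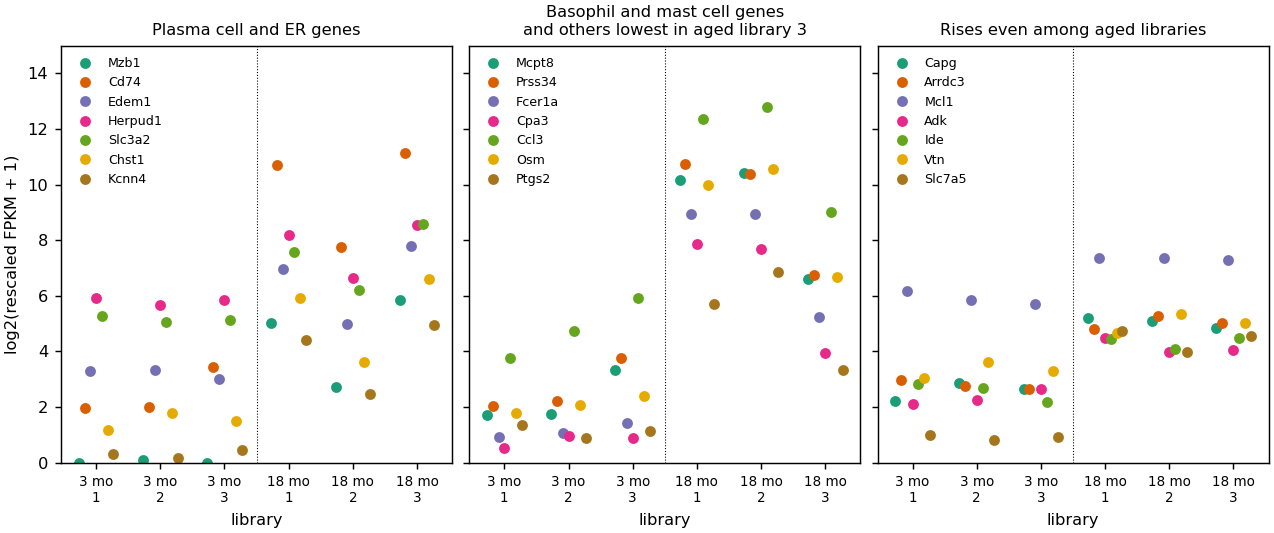
Levels of 21 higher genes (y axis, log2 of rescaled FPKM + 1) in each of the 6 libraries (x axis, age and library number), 1 colour per gene. Genes in the left panel are lowest among aged libraries in library 2 and those in the middle panel in library 3. Aged libraries lie within 1.5-fold for each gene of the right panel except Slc7a5 (14.9 to 25.6, lowest in library 2) and Vtn (24.0 to 39.6).

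Further rises of immune regulators kept their call under each scaling and without any 1 library. Slpi, a secreted inhibitor of leukocyte proteases, stood at 3.18, 2.09 and 8.96 in young and at 8225, 1002 and 2816 in aged libraries. It rose by 9.14 (SE 0.76, adjusted p = 0.00117). Cd274 (PD-L1), the ligand of the immune checkpoint receptor PD-1, went from 2.34, 1.13 and 1.64 to 25.1, 17.0 and 38.6 and rose by 3.32 (SE 0.31, adjusted p = 0.00171). Il10, an anti-inflammatory cytokine, went from at most 0.0358 to 6.96, 4.88 and 13.7 and rose by 3.11 (adjusted p = 0.00237). Il10 entered the comparison through aged libraries alone and then had to rise. Cyld, a deubiquitinase that restrains NF-kappa-B, rose by 1.2 from 2.19, 1.88 and 1.75 to 5.80, 5.33 and 6.15. The aged libraries of Cyld were close together, while those of Slpi lay far apart. Slpi, Cd274, Il10 and Cyld were each lowest in aged library 2, as the plasma cell genes were. The part of blood cells in these rises was not tested.

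Core cell machinery gave few or no calls. By limma, 0 of 51 oxidative phosphorylation genes, 0 of 78 cytosolic and 0 of 42 mitochondrial ribosomal protein genes, 0 of 35 proteasome, 0 of 64 splicing and 0 of 32 translation factor genes passed. At an unadjusted p under 0.05 the counts were 2, 2, 5, 1, 2 and 4, and with limma array weights 0, 12, 1, 0, 1 and 4. The circadian clock (0 of 19), Notch (0 of 22), DNA repair (0 of 41) and metal handling (0 of 30) lists also held no call. They had 2, 7, 12 and 6 members at an unadjusted p under 0.05 and 2, 7, 8 and 9 calls with array weights. Of all 11525 tested genes, 3114 had an unadjusted p under 0.05 and 2813 were called with array weights. The clock genes Dbp, Per1 and Arntl overlapped between the ages. The medians of oxidative phosphorylation (-0.15) and cytosolic ribosome (0.10) genes changed sign with the scaling, to 0.31 with stromal scaling and to -0.23 in FPKM as deposited. The all-gene medians under those 2 scalings were 0.375 and -0.283. Bone and cartilage genes, for comparison, had lower medians than these lists, with 21 of 28 tested osteogenic and 13 of 20 tested chondrocyte genes lower and medians of -1.46 and -1.72.

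**Figure D5:**
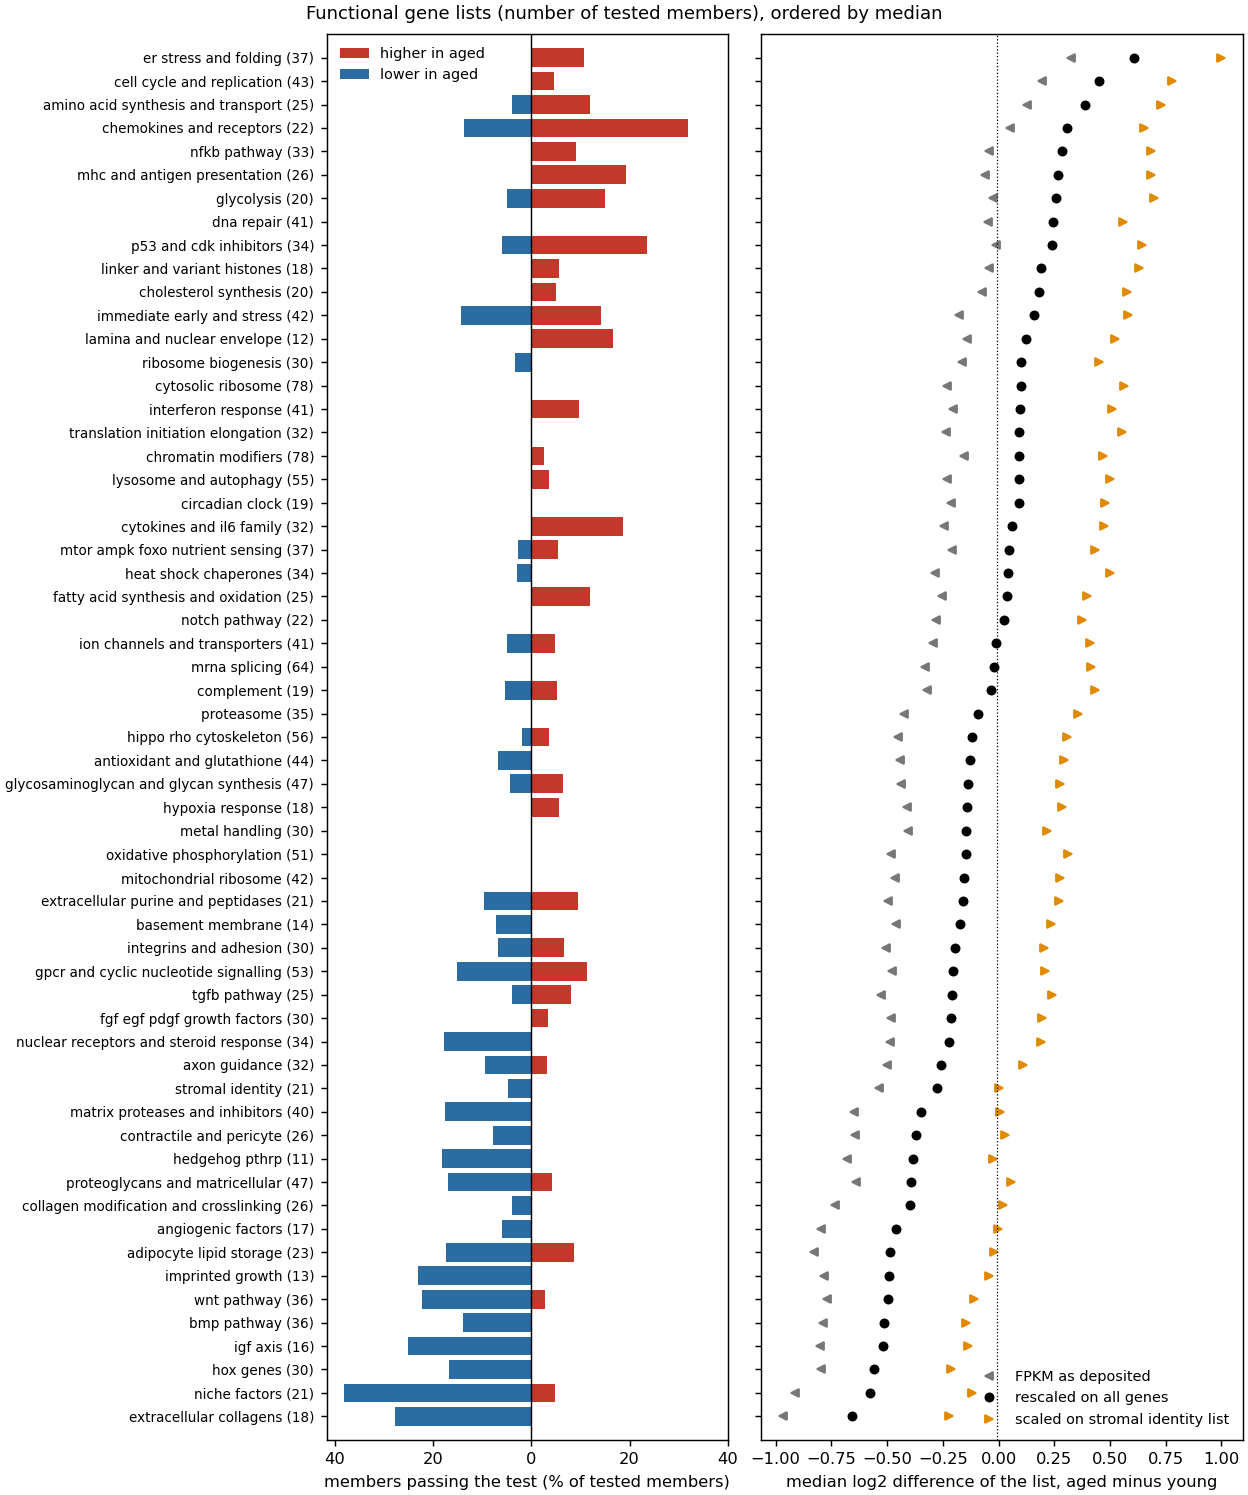
Left, share of tested members of each functional list that passed the test (red, higher; blue, lower; number tested in brackets). Right, median log2 difference of each list under 3 scalings. The collagens have a median of -0.66 and the endoplasmic reticulum genes of 0.61 after rescaling. All medians shift with the scaling, as does that of all tested genes (-0.283 as deposited, 0.375 with stromal scaling).

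The features of the microRNAs Mir351 and Mir7228 were also lower. Mir351, on chromosome X at 53053255 to 53053353 (minus strand), stood at 7.84, 13.5 and 17.6 in young and at 2.17, 2.92 and 1.24 in aged libraries and fell by 2.14 (SE 0.32, adjusted p = 0.0106). Mir7228, on chromosome 5, stood at 3.52, 10.1 and 15.3 in young libraries and was listed at 0 in all 3 aged ones. Such short features reach a high FPKM with few reads, and reads over a hairpin or its host transcript do not measure the mature microRNA. The mature sequences of Mir351 are shown for the identity of the locus, from RefSeq (GRCm38.p6), with the seed (bases 2 to 8) in capitals.
miR-351-5p: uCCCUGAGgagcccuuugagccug
miR-351-3p: gGUCAAGAggcgccugggaac
The 2 arms have different seeds, and neither arm was measured here.

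Exons of 1 or more other genes overlap some of the genes named above, among them Timp4, Pth1r, Shox2, Mest, Ptgis, Irs1, Gas1, Cdkn1a and Efna4, on the opposite strand in GENCODE M21. Whether reads were counted by strand is not stated, so reads of such pairs cannot be told apart. The same holds for close paralogues such as Ccl3 and Ccl4, since the treatment of reads that map to several places is not given. Bmp4, Wnt4, Rspo3, Hcar1, Adrb3, Metrnl, Arrdc3, Ide, Rab3d, Cdc42se2, Cyba, H2-T23, Mzb1, Slpi, Cd274 and Cyld were chosen after their values were seen.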

How the data were processed

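RNA was measured in sorted marrow stromal cells of 3 young and 3 aged control libraries, grouped by the labels' genotype and age. The FPKM values were deposited as a table of genes by library and, per the file headers, carry 1 column per library. Tools in the submitters' processing notes are STAR, edgeR and FastQC 0.11.5, with the builds GRCm38 and mm10. The sources used here do not give which tool made the FPKM, the annotation, strand use or the treatment of multiply mapped reads. Per the labels' protocols, cDNA was made with SMART-Seq v4. FPKM holds no read totals, so the depth and counting error of single values are unknown and only the spread between libraries limits precision.

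Genes at 1 FPKM or more in at least 3 of the 6 libraries were kept (11525 of 30579). FPKM was divided by median-ratio factors over genes above 0 in all 6 libraries (0.782 to 1.14), since FPKM lowers all other genes where a few are very abundant. Tests used limma 3.58.1 in R 4.3.3 with an intensity trend on log2(rescaled FPKM + 1), Benjamini-Hochberg adjustment over all genes kept and a threshold of 0.05. The scripts were tested on simulated data with known changes. Members, gene lists and alternatives were chosen with earlier results of these data known.

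Genes named were the 15 largest rises and 15 largest falls among passing genes whose groups did not overlap, with a young mean of at least 5 and a symbol other than a provisional one, outside bone, cartilage, immunoglobulin and other cell type lists. To these came up to 4 passing members per functional list and direction with the smallest p, the 6 largest rises among genes under 1 in every young and at 2 or more in every aged library, and up to 2 members per cell type list. List members that did not pass are given by values, and genes chosen after their values were seen are listed as such at the end of the results. Alternatives covered scaling, pseudocount, filters, the variance model, the libraries in the fit and each library left out. Gene positions are from GENCODE M21 (GRCm38), which held 98.7% of the symbols, and promoters and microRNAs from RefSeq. No comparison with the libraries labelled as Thbs1 knockouts is made here.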

Additional observations from a re-analysis of the deposited data

How the results depend on the processing

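Against 641 higher and 367 lower genes, FPKM as deposited gave 1609 lower, quantile normalization 970 lower, and scaling on stromal identity genes, chosen after seeing the data, 1366 higher and 135 lower. Without a filter on low values 244 were higher and 124 lower, and with a minimum of 5 FPKM 325 were higher. Array weights gave 1489 and 1324, and a fit of all 9 libraries 354 and 69. Leaving out 1 library at a time gave 171 to 1050 higher and 71 to 439 lower genes. The cause of these shifts was not tested, apart from the fewer samples of the last. Of 641 and 367 calls, 149 and 58 held without each library, and 488 and 135 under each scaling. Immunoglobulin genes, left out of 1 scaling, were counted as held there. No called gene that was followed changed direction in any alternative run.

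Replicate numbers are shared between the ages, but same-numbered libraries did not deviate together (correlations of -0.14, 0.097 and 0.071), so they share only a number. With the replicate number as a block 619 genes were higher and 238 lower, 542 and 213 of them called without it. Read depth is unknown, and genes near 1 FPKM rest on the least signal.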

Other observations

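Counts for some functional lists not described above are given here. Of all tested genes, 5.56% were higher and 3.18% lower. The all-gene median was -0.283 in FPKM as deposited and 0.375 after scaling on stromal genes. In the NF-kappa-B list 3 of 33 tested genes were higher, with a median difference of 0.28 that turned to -0.04 in FPKM as deposited. In the interferon response list 4 of 41 were higher, with a median of 0.09 that turned to -0.20 as deposited. Of 43 tested cell cycle and replication genes 2 were higher, with a median of 0.45 (0.20 as deposited). Of 26 tested contractile and pericyte genes 2 were lower, with a median of -0.37 that turned to 0.03 after scaling on stromal genes. Of 17 tested angiogenic factors 1 was lower, with a median of -0.46 that came to -0.00205 after that scaling.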
